A study of Mus musculus with 9 samples.

Results

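The genes of the core circadian clock were examined in the mediobasal hypothalamus (MBH) of mice whose mothers had consumed dietary emulsifiers. The 10 members, taken by name, were Arntl (also called Bmal1), Clock, Per1, Per2, Per3, Cry1, Cry2, Nr1d1, Nr1d2 and Dbp, and all 10 were among the 15340 genes that passed a filter on low counts, reads scaled to library size (CPM) above 1 in at least 4 libraries. RNAseq was performed on the MBH of wild-type C57Bl/6 male mice at P21. The 4 CTRL libraries came from pups of dams that drank plain water, and the 5 Emul libraries from pups of dams that drank water with 1% carboxymethylcellulose (CMC) and 1% polysorbate 80 (P80) from before mating through lactation. All animals lived on a light/dark cycle with chow. The methods name 4 control and 5 emulsifier litters, which matches the number of libraries, so the spread between libraries was read as the spread between litters. The time of day at which tissue was taken is not given in the sources used here, so no library could be placed at a phase of the cycle.

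The mammalian clock is a loop of transcription in which CLOCK and ARNTL bind E-box sequences and switch on the Per and Cry genes, whose proteins then return to the nucleus and block CLOCK and ARNTL. A second arm is formed by the nuclear receptors NR1D1 and NR1D2 (REV-ERBα and REV-ERBβ), which E-boxes also drive and which repress Arntl. DBP is a transcription factor that is itself an E-box target and binds D-box sequences, as in the Per genes. In the intact tissue of an animal the RNA of Arntl therefore peaks at about the opposite time of day from that of Dbp, Nr1d1 and the Per genes, and the suprachiasmatic nucleus of the anterior hypothalamus sets the other clocks of the body.

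The upstream sequences of 3 members and of Ciart are shown for the motifs they hold, E-boxes in Per1, Cry1 and Ciart and D-boxes in Per1 and Per3. Each stretch is the 250 bases before a RefSeq start site on build GRCm38.p6, written 5′ to 3′ on the strand of the gene, with motif matches in capitals. Per1 lies at chr11:69098699-69098948 on the plus strand. Per3 lies at chr4:151044666-151044915, Cry1 at chr10:85185055-85185304 and Ciart at chr3:95882229-95882478, all on the minus strand.
Per1: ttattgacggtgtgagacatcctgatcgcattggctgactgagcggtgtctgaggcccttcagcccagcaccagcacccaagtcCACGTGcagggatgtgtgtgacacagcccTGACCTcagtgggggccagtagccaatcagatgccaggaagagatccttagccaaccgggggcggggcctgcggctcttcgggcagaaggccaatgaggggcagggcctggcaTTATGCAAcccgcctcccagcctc
Per3: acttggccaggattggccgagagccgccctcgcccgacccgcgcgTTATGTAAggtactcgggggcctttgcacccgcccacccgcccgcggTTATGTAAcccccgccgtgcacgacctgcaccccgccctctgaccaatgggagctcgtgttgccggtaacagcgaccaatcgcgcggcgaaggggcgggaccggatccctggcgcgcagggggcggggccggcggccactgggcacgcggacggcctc
Cry1: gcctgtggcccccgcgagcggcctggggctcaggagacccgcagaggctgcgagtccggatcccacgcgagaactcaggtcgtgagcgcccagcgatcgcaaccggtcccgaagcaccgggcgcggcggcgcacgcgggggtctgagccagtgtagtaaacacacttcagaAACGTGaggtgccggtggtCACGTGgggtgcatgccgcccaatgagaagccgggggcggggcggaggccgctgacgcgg
Ciart: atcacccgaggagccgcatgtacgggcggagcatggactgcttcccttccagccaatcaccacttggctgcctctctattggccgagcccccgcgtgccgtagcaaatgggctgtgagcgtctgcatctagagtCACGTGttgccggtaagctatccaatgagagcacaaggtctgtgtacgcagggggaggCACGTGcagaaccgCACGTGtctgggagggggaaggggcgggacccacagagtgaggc

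In the Per1 stretch the E-box CACGTG begins at -166 from the start site, a half-site of the ROR and REV-ERB receptors (AGGTCA, here as its complement TGACCT) at -137 and a D-box (TTATGCAA) at -24. The Per3 stretch holds the D-box TTATGTAA at -205 and at -158. Cry1 has an E-box at -60 and the related E′-box (AACGTG, the complement of CACGTT) at -79. Ciart, which encodes a repressor of CLOCK and ARNTL also named CHRONO, has E-boxes at -116, -58 and -44.

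Both strands of 32851 RefSeq windows, each reaching 250 bases before to 50 bases after a start site, were searched in the same way. An E-box was found in 7.15% of them, an E′-box (CACGTT) in 4.68%, a D-box (TTATGTAA or TTATGCAA) in 1.66%, the half-site AGGTCA in 16.3% and a cAMP response element (TGACGTCA) in 1.79%. At least 3 E-boxes stood in 0.0883% of the windows. The member promoters in the table numbered 13 windows of 9 genes. E-boxes were found for 2 of these genes, E′-boxes for 3, D-boxes for 2, half-sites for 4 and a cAMP response element for 0. These counts are per gene, with several windows for some genes, and cannot be set directly beside the percentages per window. No match overlapped another in the stretches shown. Per2 has no entry in the table. A match is a run of letters and was not tested as a binding site.

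The core clock RNAs differed little between the groups. Per1 was lower in Emul at an unadjusted p-value under 0.05, and it was the 1 member of 10 to pass. Among all genes tested 15.8% had an unadjusted p-value under 0.05, so 1 of 10 was no more than the background share. No member had an adjusted p-value under 0.05 by limma-voom with Benjamini-Hochberg adjustment over all 15340 genes, against 0.117% of all genes, and edgeR and DESeq2 also gave 0 of 10 (each with 1 at an unadjusted p under 0.05). None changed by more than 1.5-fold together with a p-value under 0.05, against 0.469% of all genes. None had groups whose values did not overlap, against 6.6% of all genes. The fitted log2 fold changes (Emul over CTRL) ran from -0.12 to 0.064 with a median of 0.010, where the median of all genes was 0.0015. Their 95% confidence intervals excluded a 1.5-fold change in either direction for every member in this fit.

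**Figure D1:**
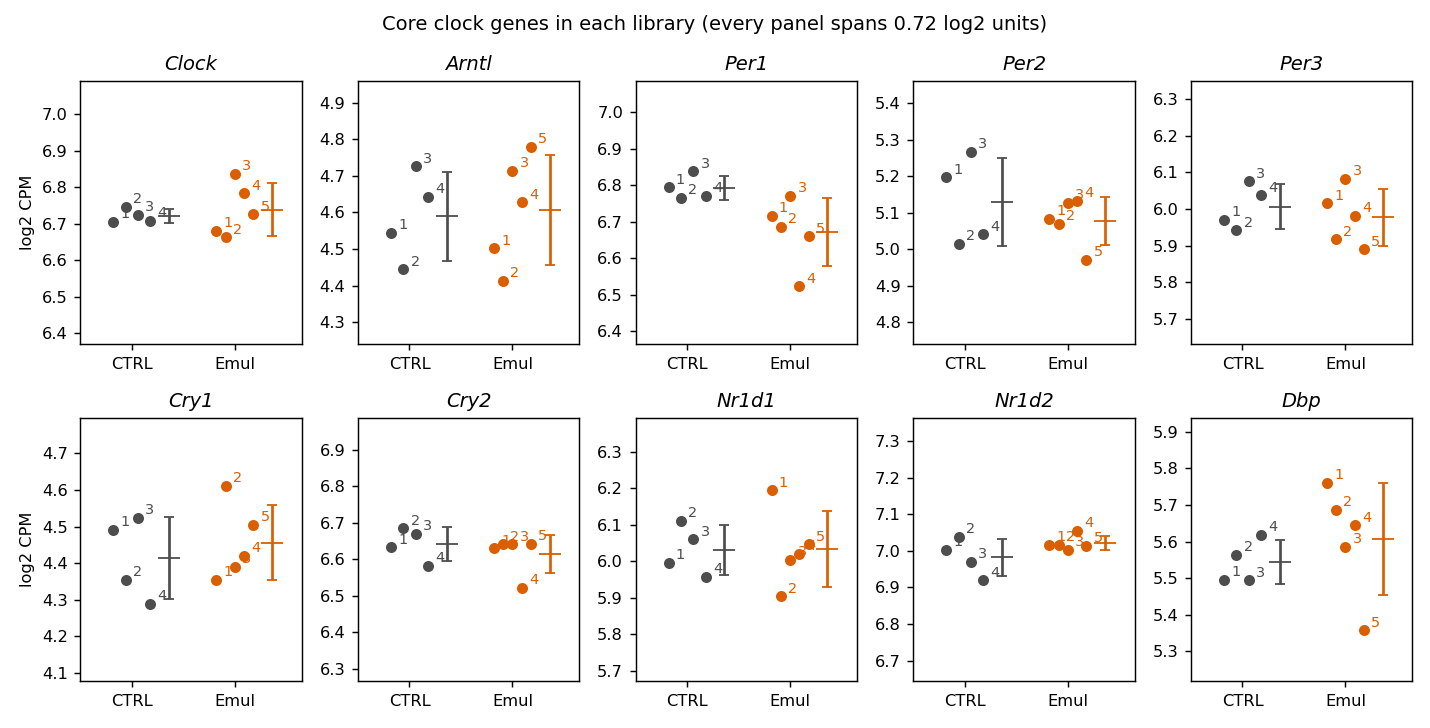
Log2 CPM of the 10 core clock genes in each of the 4 CTRL (grey) and 5 Emul (orange) libraries, numbered by replicate, with the mean and SD of each group beside the points; every panel spans the same range of log2 units. The groups overlap in all 10 panels, and the Emul points of Per1 lie below all CTRL points except for Emul 3.

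Clock and Arntl encode the paired activators. For Clock, log2 CPM was 6.70, 6.75, 6.73 and 6.71 in CTRL 1 to 4, and 6.68, 6.66, 6.84, 6.78 and 6.73 in Emul 1 to 5. The 4 CTRL values lay inside the range of the Emul values. The fitted change was 0.017 ± 0.038 (SE), adjusted p = 0.864, with a 95% confidence interval from -4.42% to 7.13%.

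Arntl was the gene with the widest spread within groups. Its log2 CPM was 4.54, 4.44, 4.73 and 4.64 in CTRL 1 to 4, and 4.50, 4.41, 4.71, 4.63 and 4.78 in Emul 1 to 5. Low and high libraries occurred in both groups, with Emul 2 and CTRL 2 lowest and Emul 5 highest. Means were 4.59 ± 0.12 (SD, n = 4) and 4.61 ± 0.15 (SD, n = 5), and the fitted change was 0.022 ± 0.078 (SE), adjusted p = 0.922. The interval ran from -9.81% to 14.3%. For both activators the sign of the change depended on how counts were summed and scaled, as described with their transcripts below.

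The Period genes encode the repressors that carry the negative feedback. Per1, which light and cAMP signals also induce directly, had log2 CPM values of 6.79, 6.76, 6.84 and 6.77 in CTRL 1 to 4, and of 6.72, 6.69, 6.77, 6.52 and 6.66 in Emul 1 to 5. Of the Emul libraries 4 lay below every CTRL library, and Emul 3 lay just above the lowest 2 of them. CTRL averaged 6.79 ± 0.033 (SD, n = 4), and Emul averaged 6.67 ± 0.093 (SD, n = 5). By limma-voom Per1 changed by -0.12 ± 0.045 (SE), or -8.02% (95% confidence interval from -14.1% to -1.56%), with an unadjusted p = 0.0198 and an adjusted p = 0.229. Without CTRL 3, the library with the lowest depth, limma-voom gave -0.11 with an unadjusted p = 0.0535 and an adjusted p = 0.397. Without Emul 4, the lowest Emul library, it gave -0.080 with an unadjusted p = 0.0396 and an adjusted p = 0.262. Over the other 12 settings the adjusted p-value stayed between 0.115 and 0.352.

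Per2 had log2 CPM values of 5.20, 5.01, 5.27 and 5.04 in CTRL, and of 5.08, 5.07, 5.13, 5.13 and 4.97 in Emul. CTRL 1 and CTRL 3 were the highest libraries, and the other CTRL libraries lay within the Emul range. Its fitted change was -0.042 ± 0.056 (SE), adjusted p = 0.756. Per3, whose loss leaves a weaker clock phenotype than that of its paralogs, had values of 5.97, 5.94, 6.08 and 6.04 in CTRL and of 6.02, 5.92, 6.08, 5.98 and 5.89 in Emul. The groups of Per3 overlapped over nearly their whole range, with a change of -0.027 ± 0.045 (SE), adjusted p = 0.807.

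The cryptochromes CRY1 and CRY2 are the partners of the PER proteins and the stronger repressors of CLOCK and ARNTL. Cry1 stood at 4.49, 4.35, 4.52 and 4.29 in CTRL and at 4.35, 4.61, 4.39, 4.42 and 4.51 in Emul on the log2 CPM scale. Both groups held high and low libraries, and the change was 0.052 ± 0.066 (SE), adjusted p = 0.738. Cry2 stood at 6.63, 6.68, 6.67 and 6.58 in CTRL and at 6.63, 6.64, 6.64, 6.52 and 6.64 in Emul. The Emul libraries of Cry2 were close together except for Emul 4, the lowest of all 9. Its change was -0.027 ± 0.036 (SE), adjusted p = 0.755.

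Nr1d1 and Nr1d2 encode the repressors of Arntl. Nr1d1 had log2 CPM values of 6.00, 6.11, 6.06 and 5.96 in CTRL and of 6.19, 5.90, 6.00, 6.02 and 6.05 in Emul. The highest and the lowest library, Emul 1 and Emul 2, belonged to the same group. The fitted change was 0.0039 ± 0.054 (SE), adjusted p = 0.981, with a sign that turned in 2 of 12 settings (-0.027 with library size alone and -0.0066 with protein-coding transcripts only). Nr1d1 overlaps the end of Thra on the opposite strand. The libraries were strand-specific, but whether strand was used in the quantification is not given in the sources used here, so reads from the overlap could count for either gene.

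Nr1d2 varied least of all members, with log2 CPM of 7.00, 7.04, 6.97 and 6.92 in CTRL and of 7.02, 7.02, 7.00, 7.06 and 7.01 in Emul. All Emul values lay between 7.00 and 7.06, and 3 of the 4 CTRL libraries lay below them, CTRL 1 by a margin that disappears in rounding. Its fitted change was 0.039 ± 0.031 (SE), adjusted p = 0.567, and turned to -0.021 when counts were scaled by transcript length.

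Dbp, an output factor whose RNA swings strongly over the day in most tissues, had log2 CPM of 5.50, 5.56, 5.49 and 5.62 in CTRL and of 5.76, 5.69, 5.59, 5.64 and 5.36 in Emul. Emul 5 was the lowest of all 9 libraries while Emul 1, 2 and 4 were the highest. The fitted change was 0.064 ± 0.069 (SE), adjusted p = 0.686, with an interval from -5.72% to 15.9%. The value turned on 1 library, since without Emul 5 the change was 0.12 with an unadjusted p = 0.0203 and an adjusted p = 0.281.

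**Figure D2:**
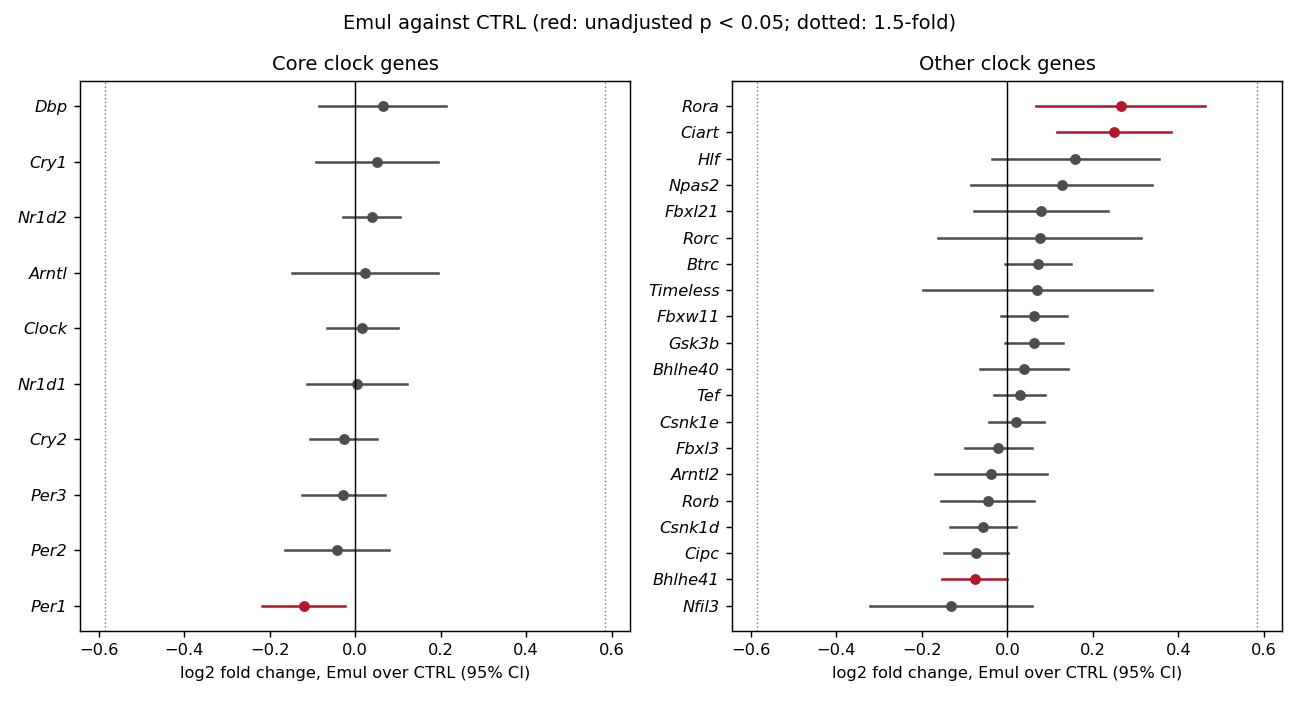
Log2 fold changes of Emul over CTRL with 95% confidence intervals from limma-voom for the 10 core clock genes (left) and 20 other clock genes (right). Red marks an unadjusted p under 0.05 and dotted lines mark 1.5-fold; Per1 on the left and Rora, Ciart and Bhlhe41 on the right are red, and the signs of Arntl, Clock, Nr1d1 and Nr1d2 turned with the scaling or the choice of transcripts.

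The mitochondrial share of counts separated the groups and stands beside the change in Per1. Protein genes of the mitochondrial genome took 4.51% to 5.52% of counts in CTRL libraries and 5.71% to 6.75% in Emul libraries, with no overlap. Total estimated counts overlapped between the groups, from 28245360 in CTRL 3 to 46067534 in Emul 4. Each member had at least 655 counts in every library. Relative counting error is larger for Cry1, with 655 to 1012 counts, than for Nr1d2, with 3575 to 6031. The part of the mitochondrial share in the change of Per1 was not tested. In bulk tissue, fewer cells of a type and less RNA per cell cannot be told apart.

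Levels were compared between genes per transcript length, as TPM (transcript abundance corrected for length and scaled to the library) summed over the transcripts of a gene. Nr1d2 was the most abundant member at 65.2 to 76.9 TPM over the 9 libraries, and all of its values lay above those of the next gene. Dbp (48.3 to 63.8), Cry2 (47.9 to 57.1), Nr1d1 (42.1 to 55.4) and Per1 (40.5 to 52.5) followed, and in this group each gene overlapped its neighbours. Clock (21.4 to 26.5 TPM) lay below all values of Per1 and overlapped Per3 (20.7 to 26.8). Per3 overlapped Arntl (14.9 to 22.2), Arntl overlapped Cry1 (12.8 to 16.9), and Cry1 overlapped Per2, the lowest at 10.1 to 13.4 TPM.

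TPM carries a shift between the groups that the TMM scaling of the fit does not, as the median gene tested had a log2 ratio of Emul over CTRL of -0.098 and 82.1% of genes had a lower mean in Emul. All 10 members had a lower mean TPM in Emul, with a median log2 ratio of -0.11. On this scale the groups did not overlap for 2 members, Per1 and Cry2, against 13.4% of all genes. For Per1 the CTRL libraries averaged 51.4 ± 0.83 TPM (SD, n = 4) and the Emul libraries 43.9 ± 2.72 TPM (SD, n = 5), and that of Cry2 was 54.2 ± 2.55 and 49.9 ± 1.30.

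**Figure D3:**
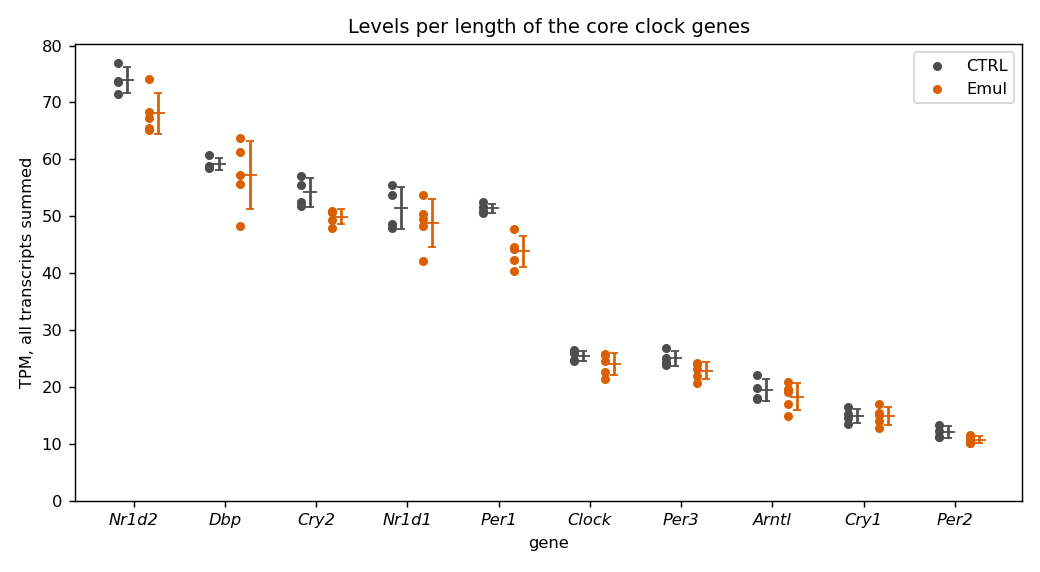
TPM of the 10 core clock genes in the 4 CTRL (grey) and 5 Emul (orange) libraries in order of mean level, with the mean and SD of each group. Nr1d2 is highest at 65.2 to 76.9 TPM and Per2 lowest at 10.1 to 13.4 TPM; Emul means lie below CTRL means for all 10 genes on this scale, on which the median of all genes is also shifted.

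The spread between libraries was then set beside that of other genes of similar level, since the time of harvest was not known. For each member the SD within groups was ranked among the 501 genes nearest to it in mean log2 CPM. Dbp and Arntl ranked high, at the 92.0 and 91.8 percentile, followed by Nr1d1 at 85.4, Per2 at 78.2, Cry1 at 77.8 and Per1 at 73.9. Per3 (68.9), Clock (50.1) and Cry2 (40.3) lay nearer the middle, and Nr1d2 at 13.8 was less variable than most genes of its level. In size the differences remained small. From the lowest to the highest of the 9 libraries Dbp differed by 1.32-fold, Arntl by 1.29-fold, Cry1 by 1.25-fold, Per1 by 1.24-fold and Nr1d2 by 1.10-fold.

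The pairs of clock genes were examined for opposed levels across the 9 libraries. Arntl and Dbp, which stand for opposite arms of the loop, had a Pearson r of -0.62 (exact permutation p = 0.0738) and a Spearman rho of -0.65 (exact permutation p = 0.0666), two-sided, with an adjusted p = 0.990 for r over the 45 pairs. The library with the most Arntl RNA, Emul 5, had the least Dbp RNA, and 2 of the 3 libraries with the least Arntl RNA, Emul 1 and Emul 2, had the most Dbp RNA. After the group means had been removed r was -0.67 (exact permutation within groups, p = 0.0667). Without CTRL 2 and Emul 2, the libraries farthest from the median of Arntl, r was -0.70. With 1 library left out at a time r ran from -0.72 without CTRL 2 (exact permutation p = 0.0447) to -0.42 without Emul 5 (exact permutation p = 0.294), and in the authors' gene table it was -0.34. Each group holds fewer than 6 libraries, so no r is given for a group alone. The relation did not pass the threshold with all libraries, and about 5.10% of all genes had a lower r with Arntl than Dbp had.

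Other opposed pairs lay closer to 0. Arntl and Nr1d1 had r = -0.034, Arntl and Nr1d2 r = -0.33, Arntl and Per1 r = 0.025, Arntl and Per2 r = 0.15, and Arntl and Per3 r = 0.35. Genes of 1 arm were not closely tied either, with r = 0.50 for Arntl and Clock, 0.61 for Per2 and Per3, 0.31 for Nr1d1 and Nr1d2, and 0.099 for Nr1d1 and Dbp. Of the 45 pairs, 22 had a negative and 23 a positive r.

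The pair with an unadjusted exact permutation p under 0.05 was Per1 and Cry2, at r = 0.71 (p = 0.0455) and rho = 0.33 (p = 0.385). It rested on the libraries farthest from the median of Per1, Emul 4 and Emul 5, without which r was 0.21. Per1 and Nr1d2 had r = -0.61 (exact permutation p = 0.0914) and rho = -0.73 (exact permutation p = 0.0311), and r was -0.40 without the same libraries. No pair passed after adjustment over the 45 pairs, where the lowest adjusted p-value was 0.990 for r and 0.913 for rho.

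**Figure D4:**
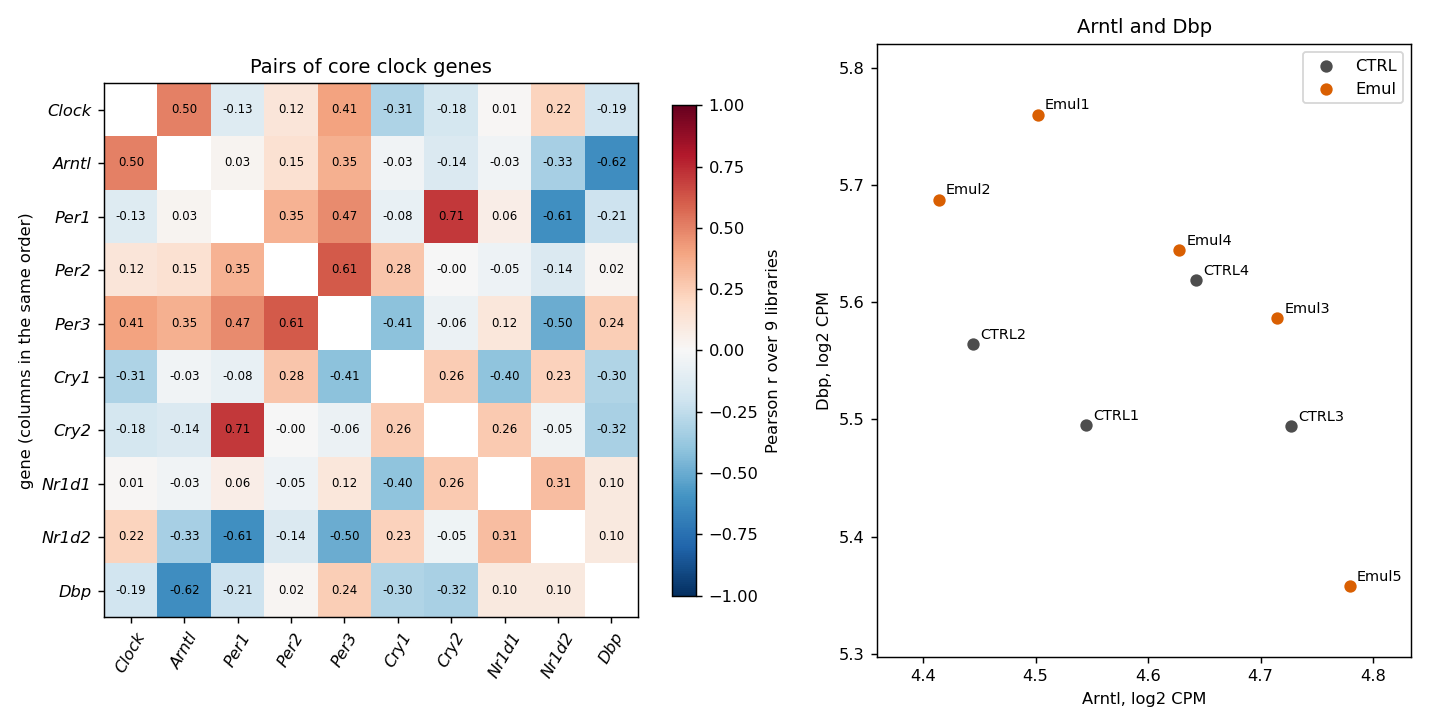
Left, Pearson r of log2 CPM over the 9 libraries for the 45 pairs of core clock genes, from blue (negative) to red (positive). Right, log2 CPM of Dbp against Arntl in each library, CTRL in grey and Emul in orange; the points run from Emul 1 and Emul 2 at the upper left to Emul 5 at the lower right, with r = -0.62.

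For 4 members the genes with the most similar pattern over the 9 libraries were listed, as a description with no test. Those nearest to Arntl were A630089N07Rik (r = 0.95), Msn (0.95) and Dnah11 (0.94), and those most opposed were Cox17 (-0.97), Anapc15 (-0.96) and Polh (-0.95). Those nearest to Dbp were Eef2kmt (0.95), Zfp772 (0.95) and Mcoln1 (0.93), and the most opposed were H6pd (-0.95), Dr1 (-0.94) and Xpr1 (-0.94). Per1 was followed most closely by Prkx (0.93), Nup93 (0.93) and Pqlc2 (0.93) and opposed by Gramd1c (-0.98), Lyrm7 (-0.93) and Stip1 (-0.90). Nr1d2 was followed by Gm340 (0.92), Glul (0.91) and Ttbk2 (0.91) and opposed by Notch3 (-0.93), AI464131 (-0.90) and Thrsp (-0.90). No core clock gene was among the nearest or most opposed genes of another.

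Transcripts of the members were tested one by one to see which carried the gene values. Of 25 member transcripts that passed the filter, 4 had an unadjusted p-value under 0.05, where 10.8% of the 39840 transcripts tested did. The groups did not overlap for 3 of the 25 (Per1-201, Cry2-203 and Dbp-205), against 4.67% of all transcripts. No transcript of any gene had an adjusted p-value under 0.05 by limma-voom with Benjamini-Hochberg adjustment. The main Per1 transcript, Per1-201, stood at 6.51, 6.48, 6.64 and 6.54 in CTRL and at 6.41, 6.38, 6.45, 6.30 and 6.45 in Emul on the log2 CPM scale, so all Emul values lay below. Its change was -0.14 ± 0.045 (SE), adjusted p = 0.376. The other 3 were not the main form of their gene and were higher in Emul, namely Cry2-203, a transcript without a coding frame (0.43 ± 0.13, adjusted p = 0.369), Arntl-206 (0.62 ± 0.25, adjusted p = 0.437) and Dbp-205, which retains an intron (0.67 ± 0.16, adjusted p = 0.274).

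Arntl RNA was divided between a pair of coding transcripts, Arntl-201 with 63.4% and Arntl-206 with 30.3% of the counts of the gene over all libraries. Arntl-206 holds a 21-base coding exon at chr7:113281402-113281422 (plus strand, mm10) that Arntl-201 skips, and their annotated coding parts are otherwise the same. The exon is shown here because it is the coding difference between the forms. The lines give 30 bases on either side, with the exon in capitals where it is included.
Arntl-206: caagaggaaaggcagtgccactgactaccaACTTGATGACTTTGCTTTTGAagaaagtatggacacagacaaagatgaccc
Arntl-201: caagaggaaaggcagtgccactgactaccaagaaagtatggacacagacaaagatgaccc

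Arntl-206 was the only 1 of 6 annotated Arntl transcripts with this exon. Its share of the counts of Arntl was 15.2%, 34.9%, 15.9% and 28.5% in CTRL 1 to 4, and 35.7%, 30.2%, 28.0%, 38.5% and 41.0% in Emul 1 to 5. The lowest shares were those of CTRL 1 and CTRL 3, and the groups overlapped through CTRL 2 and CTRL 4. CTRL averaged 23.6% ± 9.68 (SD, n = 4) and Emul 34.7% ± 5.49 (SD, n = 5), which differ by 11.1 percentage points with an exact permutation p = 0.0714 (two-sided, all 126 splits, where the smallest possible p is 0.0079). The transcripts also differ in their first exon and at their 3′ end, so the estimated split does not rest on the 21 bases alone. How certain the split is within a library cannot be read from the estimated counts.

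Dbp-205 took 6.5%, 8.5%, 5.2% and 4.9% of the counts of Dbp in CTRL and 8.1%, 8.9%, 8.9%, 9.5% and 11.8% in Emul. CTRL 2 lay within the Emul range and the other CTRL libraries below it. In log2 CPM the transcript stood at 1.60, 2.04, 1.27 and 1.30 in CTRL and at 2.17, 2.24, 2.13, 2.28 and 2.31 in Emul, which did not overlap. It rests on 67 to 215 estimated counts per library, and Dbp-201, the main coding form, held 85.8% of the counts of the gene.

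The gene table deposited by the authors gave other values for Clock and Arntl than the sum of all their transcripts did. The table was rebuilt to within 0.05 log2 units in every library, apart from 1 common offset per library, for 91.3% of 13991 genes when transcripts with identifier numbers under 195750 were kept and their counts scaled by length, and for 64.0% with all transcripts. For the 10 members this rule returned the values of the table to within 0.0031 log2 units. Transcripts outside this limit held 84.2% of the counts of Clock, 36.6% of those of Arntl and 14.2% of those of Dbp, and at most 2.90% of those of the other members. These transcripts include Clock-205, the longest Clock transcript, with 75.6% of its counts, and Arntl-206.

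In that table Clock had log2 CPM of 4.35, 4.23, 4.02 and 4.51 in CTRL and of 4.17, 4.04, 4.23, 3.84 and 4.11 in Emul. CTRL 4 was highest, CTRL 3 lay among the Emul libraries, and the change was -0.20 (limma-trend, adjusted p = 0.429) where the summed transcripts gave 0.017. Arntl stood at 4.32, 3.72, 4.41 and 4.18 in CTRL and at 3.80, 3.93, 4.28, 3.83 and 4.00 in Emul, a change of -0.19 (adjusted p = 0.582) where the sum gave 0.022. Per1 changed by -0.13 in the table (adjusted p = 0.304), close to the -0.12 of the sum. For the remaining 7 members the table and the sum differed by at most 0.034 log2 units in fold change.

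**Figure D5:**
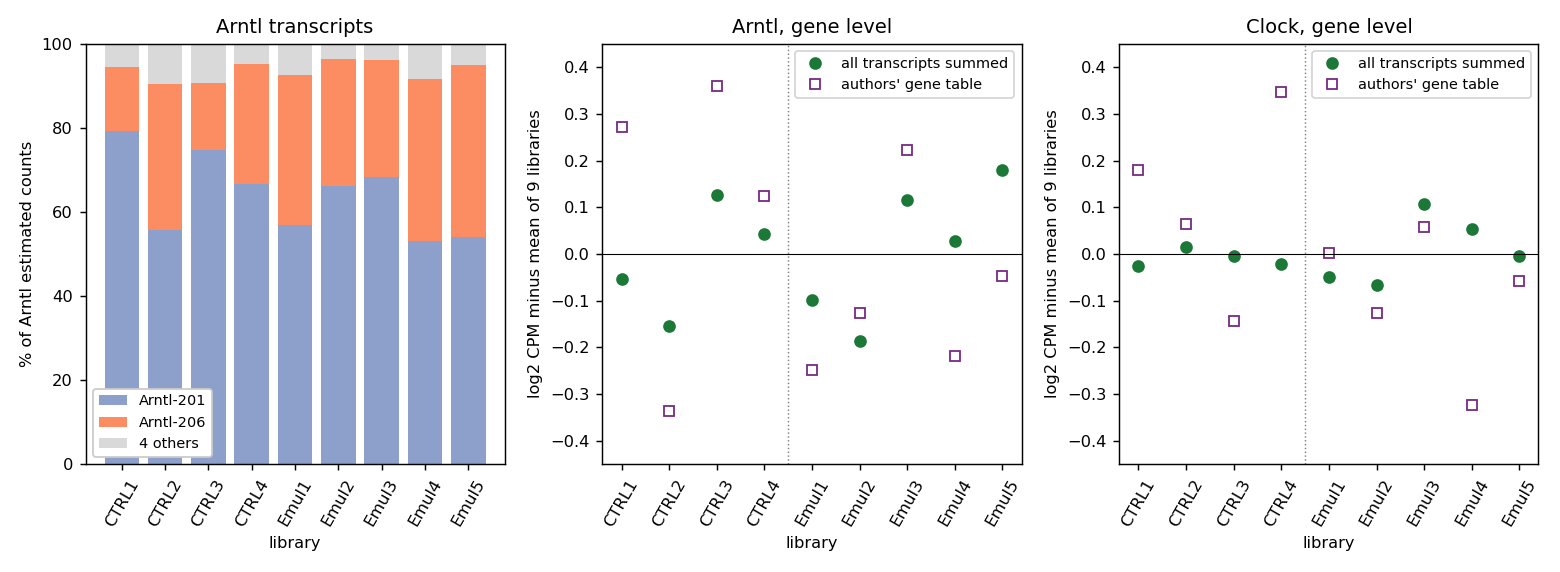
Left, share of the estimated counts of Arntl on Arntl-201, Arntl-206 and 4 other transcripts in each library. Middle and right, log2 CPM of Arntl and Clock in each library relative to the mean of the 9 libraries, for all transcripts summed (filled) and for the authors' gene table (open); CTRL lies left of the dotted line, and the open points spread more widely (fold changes of -0.19 for Arntl and -0.20 for Clock, against 0.022 and 0.017 for the filled points, none past the threshold).

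The remaining parts of the clock were described by 20 further genes, all of which passed the filter. Of these 2 were higher and 1 was lower in Emul at an unadjusted p-value under 0.05, against 6.84% and 8.99% of all genes, and none passed after adjustment by limma-voom. The median change was 0.050, with 13 positive and 7 negative. Casein kinases, F-box proteins and the other D-box binding factors were among the 17 that did not pass, with changes between -0.13 (Nfil3) and 0.16 (Hlf).

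Ciart was the clock gene with the smallest p-value. Its log2 CPM was 3.24, 3.42, 3.43 and 3.49 in CTRL and 3.72, 3.64, 3.63, 3.60 and 3.65 in Emul, so that every Emul value exceeded every CTRL value, as for 2.8% of all genes. The change was 0.25 ± 0.061 (SE), or 18.9% (95% confidence interval from 8.39% to 30.5%), with an unadjusted p = 0.00153 and an adjusted p = 0.114. Over 12 other settings the adjusted p-value ran from 0.0385 with DESeq2 to 0.332 with the replicate number as a block, and the unadjusted p-value stayed under 0.05.

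Rora encodes an activator that competes with NR1D1 and NR1D2 for the half-sites in Arntl. It stood at 6.34, 6.47, 6.34 and 6.36 in CTRL and at 6.69, 6.55, 6.99, 6.55 and 6.43 in Emul, with Emul 3 the highest and Emul 5 within the CTRL range. Its change was 0.26 ± 0.091 (SE), unadjusted p = 0.0129, adjusted p = 0.202. Rora is also strongly expressed in thalamus, and a list of 5 thalamic markers summed to 46.5 to 69.2 CPM in CTRL and to 45.9 to 160.8 CPM in Emul, highest in Emul 3. Of that list 4 genes passed the filter, and all 4 had positive changes with a median of 0.64. None of the 4 had an unadjusted p-value under 0.05 by limma-voom, against 15.8% of all genes. No gene of the list was at 0 in all libraries. The part of thalamic cells in the change of Rora was not tested. Bhlhe41, a repressor at E-boxes also named DEC2, changed by -0.076 ± 0.035 (SE), unadjusted p = 0.0492, adjusted p = 0.313, and missed the unadjusted threshold in 9 of 12 settings. Its change was -0.17 (adjusted p = 0.300) with lengthScaledTPM and -0.16 (adjusted p = 0.327) in the authors' table.

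Of 5 genes tied to clock output (Wee1, Nampt, Usp2, Cirbp and Rbm3), 1 was higher at an unadjusted p-value under 0.05, against 6.84% of all genes, and none was lower. This was Cirbp, a cold-induced RNA-binding protein, with a change of 0.13 ± 0.056 (SE) and an adjusted p = 0.296. Its log2 CPM ran from 6.25 to 6.34 in CTRL and from 6.31 to 6.63 in Emul.

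Per1 shares its cAMP and activity response with the immediate early genes, and glucocorticoids also induce it. Among 10 immediate early and CREB-driven genes tested, 4 were lower in Emul at an unadjusted p-value under 0.05 and none was higher, against 8.99% and 6.84% of all genes, with a list median of -0.27. They were the transcription factor genes Fos (-0.69 ± 0.20, adjusted p = 0.169), Nr4a1 (-0.69 ± 0.19, adjusted p = 0.146), Egr1 (-0.49 ± 0.18, adjusted p = 0.231) and Junb (-0.46 ± 0.18, adjusted p = 0.253). Summed over the list, CPM was 210.4 to 277.1 in CTRL and 123.4 to 215.9 in Emul, lowest in Emul 5 and Emul 4. The part of these responses in the change of Per1 was not tested.

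Of 11 glucocorticoid-induced genes, 2 were higher at an unadjusted p-value under 0.05, against 6.84% of all genes, namely Zbtb16 (0.71 ± 0.19, adjusted p = 0.141) and Klf9 (0.20 ± 0.057, adjusted p = 0.168), and 1 was lower, against 8.99%, namely Pdk4 (-0.26 ± 0.076, adjusted p = 0.168). The list median was 0.081. None of these lists had a gene with an adjusted p-value under 0.05.

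The dissection was checked with markers of the regions it could hold. Of 10 suprachiasmatic markers 8 passed the filter, the neuropeptide genes Nms and Prok2 being too low, and the list summed to 165.0 to 186.3 CPM in CTRL and to 139.3 to 173.7 CPM in Emul. The largest parts of that sum were Zfhx3 and Rorb, with a mean log2 CPM of 6.32 and 4.99, while Vip averaged 1.99. Vip, the peptide of the light-receiving suprachiasmatic neurons, differed most between libraries, with log2 CPM of 3.41, 2.42, 3.25 and 2.48 in CTRL and of 2.96, 0.42, 0.17, 3.19 and -0.17 in Emul. Emul 2, 3 and 5 were low while Emul 1 and Emul 4 lay in the CTRL range, and the change was -1.50 ± 0.57 (SE), adjusted p = 0.237. Grp, another peptide of that nucleus, changed by 0.30 ± 0.12 (SE), adjusted p = 0.259. Of the 8 markers tested, 7 were lower in Emul and Grp was the 1 higher, with a list median of -0.085. At an unadjusted p-value under 0.05 by limma-voom 1 was lower (Vip) and 1 higher (Grp), against 8.99% and 6.84% of all genes. The part of suprachiasmatic tissue in the clock gene values was not tested.

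Of 9 arcuate and median eminence markers 8 passed the filter, with Kiss1 under 1 CPM in all libraries. None of the 8 differed at an unadjusted p-value under 0.05 by limma-voom, against 15.8% of all genes. The list summed to 151.4 to 174.9 CPM in CTRL and to 139.7 to 199.6 CPM in Emul. It holds Pomc and Cartpt, which the study reports as lower by qPCR in the MBH of male offspring. Here Pomc changed by -0.23 ± 0.15 (SE), adjusted p = 0.503, and Cartpt by -0.10 ± 0.077 (SE), adjusted p = 0.552. Of 4 ventromedial markers 1, Fezf1, was lower at an unadjusted p-value under 0.05 by limma-voom (-0.32 ± 0.10, adjusted p = 0.181), against 8.99% of all genes. None was higher, against 6.84%, and the list held 2 positive and 2 negative changes. It summed to 134.5 to 157.1 CPM in CTRL and 141.2 to 198.5 CPM in Emul. Most of that sum was Adcyap1, with a mean log2 CPM of 6.91 and a change of 0.23 ± 0.11 (SE), adjusted p = 0.319. Nr5a1 averaged 4.19 (change -0.0020), Fezf1 3.68 and Sox14 1.72 (change 0.10). The share of ventromedial tissue was not tested. Of 6 pituitary and pars tuberalis markers 3 passed the filter, Tshb, Cga and Tbx19, with a mean log2 CPM of 2.45, 1.80 and 0.64. The rest of that list, Prl, Gh and Pou1f1, were under 1 CPM in every library. The list summed to 9.30 to 12.6 CPM in CTRL and to 9.62 to 11.6 CPM in Emul. No marker of any list was at 0 in all libraries.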

How the data were processed

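RNAseq was performed by the authors on the MBH of P21 male mice (4 CTRL, 5 Emul). Per the processing notes, FastQC 0.11.9, kallisto 0.46.1 and edgeR 3.40.1 were used on mm10, and the authors deposited estimated counts and TPM values for 119414 transcripts per library, without further normalization. A log2 CPM table of 14593 gene symbols was also deposited, with 1 nameless entry that was left out. How it was summarised is not given in the sources used here.

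Estimated counts were summed per gene by GENCODE M21, which held 97.8% of the transcripts (1.20% to 1.27% of counts were unmatched and left out). Genes with CPM above 1 in at least 4 libraries were compared by limma-voom (limma 3.58.1, edgeR 4.0.16, R 4.3.3) with TMM scaling and no covariates. Thresholds of p under 0.05 and 1.5-fold follow the methods of the study. Adjusted p-values are Benjamini-Hochberg over all features tested. Log2 CPM of single libraries used a prior count of 2. Correlations were tested by exact permutation over all 362880 pairings of the libraries, or over 2880 pairings within groups, with ranks from scipy 1.17.1. Fits and correlations were tested on simulated data. Counts were rounded for the edgeR and DESeq2 (1.42.0) alternatives. Other alternatives were limma-trend, other scalings and filters, lengthScaledTPM, the deposited table, a replicate block, each library left out and, chosen after seeing the data, transcripts numbered below the table's limit and protein-coding transcripts only.

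The members and lists were chosen with earlier results of these data known. Named are all members, list genes with an unadjusted p under 0.05, and the genes most alike 4 members. Genes named otherwise (Hlf, Nfil3, Fbxl21, Nms, Prok2, Kiss1, Prl, Gh, Pou1f1, Tshb, Cga, Tbx19, Zfhx3 and Rorb) were chosen after their values were seen. Wee1, Nampt, Usp2 and Rbm3 are named only to give the list that holds Cirbp, and Nr5a1, Sox14 and Adcyap1 that of Fezf1. Pomc and Cartpt are named for the qPCR of the study. Replicate libraries of a group differed by a chi-square of 7.49 to 21.4 per gene, above the 1 that sampling noise gives. The part of counting error in the spread of the members was not tested. Estimated counts carry no measure of the uncertainty of splitting reads between transcripts.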

Additional observations from a re-analysis of the deposited data

Results flagged for a closer look

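Over the 10 core and 20 other clock genes and the 4 member transcripts named in the report, taken in CTRL and in Emul, 68 groups of values were examined. Of these 4 had 1 library far from the rest by Dixon's ratio of its gap to the whole range, above the 95% critical value, and chance gives about 1 in 20, or 3.4. Cry2 in Emul 4 stood at 6.52 log2 CPM while the other Emul libraries lay between 6.63 and 6.64 (ratio 0.896). Nr1d2 in Emul 4 stood at 7.06 against 7.00 to 7.02 (ratio 0.743). Hlf, a D-box binding factor related to Dbp, stood at 6.98 in Emul 3 against 6.46 to 6.59 (ratio 0.747). Fbxl21, an F-box protein that acts on the cryptochromes, stood at 3.12 in CTRL 4 against 3.35 to 3.36 (ratio 0.949).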

How the results depend on the processing

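The number of core clock genes with an unadjusted p under 0.05 was 1 in the values reported and stayed at 1 in 10 of 12 settings, with 0 after adjustment in all 12. It was 2 with the replicate number as a block, which drops Emul 5 for want of a partner and where Dbp joined Per1 (0.13, limma-voom adjusted p = 0.363), and 2 with transcripts numbered below the table's limit, where Clock joined (-0.23, limma-voom adjusted p = 0.325). With 1 library left out it ran from 0 (without CTRL 3) to 2 (without Emul 5). Same-numbered libraries of the groups did not deviate together (r of -0.16, -0.015, 0.021 and -0.055), so the numbers were not taken as pairs. Under the block 2 member transcripts passed in place of 4, and Bhlhe41 no longer passed (-0.074). With 1 library left out 3 to 6 did.

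Other clock genes past the threshold numbered 2 in place of 3 in 7 of 12 settings, 5 with library size alone, with lengthScaledTPM and with the authors' table, and 2 to 4 with 1 library left out. The sign turned for Arntl (-0.0079 with library size alone, -0.19 in the authors' table, -0.025 under the block, -0.17 below the limit), Clock (-0.014 with library size alone, -0.20 in the table, -0.23 below the limit), Nr1d1 (-0.027 with library size alone, -0.0066 with protein-coding transcripts) and Nr1d2 (-0.021 with lengthScaledTPM). With 1 library left out the changes ran from -0.029 to 0.071 for Arntl, from -0.0074 to 0.036 for Clock and from -0.036 to 0.037 for Nr1d1. The cause was not tested, except that the limit leaves out, by construction, the transcripts with 84.2% of the counts of Clock. Pairs past an unadjusted p under 0.05 numbered 0 to 4, and r of Arntl and Dbp ran from -0.72 to -0.42, with 1 library left out. The depth limits the minor transcripts more than the genes.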
